A study of Mus musculus with 10 samples.

Results

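Type I interferon-stimulated genes were examined in the hippocampus of Dp1Yey mice, a model of Down syndrome. A list of 35 such genes was taken by symbol, and a gene counted as measured where a probe set of the array was annotated to that symbol alone. This held for 33 of the 35, each with 1 probe set, among 19938 genes measured in all. Ifi44 and Isg15 were not carried by a single-symbol probe set here and are not analysed. The arrays were Affymetrix Mouse Gene 1.0 ST arrays, hybridised with RNA of both hippocampi of 16-week-old males, 1 mouse per array, from 5 Dp1Yey mice and 5 control littermates. Dp1Yey mice carry a germline duplication of the stretch of mouse chromosome 16 (Mmu16) between Lipi and Zbtb21, which is homologous to human chromosome 21, so that its genes are present in 3 copies in every cell, while control littermates carry 2. Both groups share the C57BL/6 background, given as the 6N substrain in the sample labels and as 6J in the study's methods, which was not settled here. Mx1 and Mx2 lie in the duplicated interval and were kept apart, and the 31 other measured members are present in 2 copies in both groups.

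Type I interferons (the interferon alphas, interferon beta and their relatives) bind a receptor made of IFNAR1 and IFNAR2, and the kinases JAK1 and TYK2 on its inner side then activate transcription factors such as STAT2. With IRF9, STAT2 is part of a complex that enters the nucleus and binds the interferon-stimulated response element in the promoters of the target genes. The targets include sensors of foreign or misplaced nucleic acids, effectors that block viral entry, translation or release, and the signalling factors themselves. In brain, microglia, endothelial cells, astrocytes and neurons all can respond. Both receptor genes, Ifnar1 and Ifnar2, lie in the duplicated interval.

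Values are log2 units of robust multi-array average (RMA) signal, and a difference is the mean of the 5 Dp1Yey mice minus the mean of the 5 control mice. A gene was called a differentially expressed gene (DEG) at an adjusted p under 0.05 in limma, a linear model with moderated errors, with Benjamini-Hochberg adjustment over all 19938 genes. Genes whose mean did not exceed 5.45, the 90th percentile of 1015 olfactory receptor genes, were counted as not above background. The medians of the 10 arrays lay between 6.31 and 6.44 and their interquartile ranges between 3.40 and 3.53, with the highest median and lowest interquartile range in control replicate 2, and all 10 markers of hippocampal neurons were above background. The interquartile ranges were 3.47 to 3.53 in Dp1Yey and 3.40 to 3.51 in control arrays. A term for them in a fit is therefore partly confounded with group. In whole tissue, a change in the number of cells of a type and a change in RNA per cell cannot be told apart.

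The promoters of the members are shown first, because the response element is how the pathway is known to reach its targets. RefSeq promoter windows (GRCm38.p6, 250 bases before to 50 after a gene start) were found for 23 of the 31 measured members in 2 copies. The core letters of the element, GAAA followed by any 2 bases and a further GAAA, read on either strand, occurred in the windows of 11 of these 23 genes (47.8%), against 3.99% of 27025 genes with a window. A longer form, the core followed directly by CT, was in 6 of the 23 (26.1%) and in 0.303% of all genes. The separate element of STAT dimers, TTCNNNGAA, was in 6 of the 23 (26.1%) against 9.55%. Below are the 250 bases before the start of the 4 effectors of smallest p and of the other members of the Ifit family, 5′ to 3′ on the strand of the gene and with matches to the core in capitals.
Trim30a (chr7:104465194-104465443, minus strand): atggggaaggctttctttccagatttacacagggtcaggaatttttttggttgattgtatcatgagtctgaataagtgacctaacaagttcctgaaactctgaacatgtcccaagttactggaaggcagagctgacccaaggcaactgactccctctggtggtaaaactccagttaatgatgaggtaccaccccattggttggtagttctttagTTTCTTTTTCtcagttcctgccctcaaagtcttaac
Rsad2 (chr12:26456453-26456702, minus strand): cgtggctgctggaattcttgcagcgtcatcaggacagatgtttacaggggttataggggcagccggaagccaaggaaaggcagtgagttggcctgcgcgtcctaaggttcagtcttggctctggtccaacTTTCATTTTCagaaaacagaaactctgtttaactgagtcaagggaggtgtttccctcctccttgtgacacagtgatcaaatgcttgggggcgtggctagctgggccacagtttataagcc
Ifit3 (chr19:34583279-34583528, plus strand): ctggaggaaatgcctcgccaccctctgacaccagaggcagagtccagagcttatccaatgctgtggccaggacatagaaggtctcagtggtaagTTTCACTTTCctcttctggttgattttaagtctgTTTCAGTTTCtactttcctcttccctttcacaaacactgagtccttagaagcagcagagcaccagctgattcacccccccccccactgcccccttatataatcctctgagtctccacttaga
Ifit1 (chr19:34640639-34640888, plus strand): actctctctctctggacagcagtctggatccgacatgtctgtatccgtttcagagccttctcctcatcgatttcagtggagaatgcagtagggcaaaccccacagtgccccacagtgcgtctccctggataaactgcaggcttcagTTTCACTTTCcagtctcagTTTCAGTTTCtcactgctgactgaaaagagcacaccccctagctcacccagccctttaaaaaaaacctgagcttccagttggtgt
Ifit2 (chr19:34550444-34550693, plus strand): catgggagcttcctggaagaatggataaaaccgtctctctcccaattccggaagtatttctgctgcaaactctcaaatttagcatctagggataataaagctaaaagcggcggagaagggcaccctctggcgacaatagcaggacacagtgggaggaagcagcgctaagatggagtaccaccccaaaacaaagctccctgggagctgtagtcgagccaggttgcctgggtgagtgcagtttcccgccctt
Samd9l (chr6:3399572-3399821, minus strand): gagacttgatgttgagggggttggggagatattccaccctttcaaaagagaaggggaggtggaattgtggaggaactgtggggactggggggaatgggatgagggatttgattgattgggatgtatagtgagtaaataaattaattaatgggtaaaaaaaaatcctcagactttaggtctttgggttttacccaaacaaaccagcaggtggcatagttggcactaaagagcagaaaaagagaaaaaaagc
Trim30a held 1 copy of the core, which starts 36 bases before the gene start, and Rsad2 held 1 at 120 bases. Ifit3 held 2 copies at 156 and 122 bases and its neighbour Ifit1 held 2 at 104 and 85 bases. No match was found in the windows of Ifit2, for which 2 starts are listed, or Samd9l, which says only that these letters are not in these windows. A second listed start of Trim30a had its match 2 bases after the first position of the transcript. Such matches describe the sequence and do not show a bound site.

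Across the 31 members in 2 copies, 26 lay above the control mean and 5 below it, where 42.1% of all genes lay above. The DEGs among them were Trim30a and Samd9l, both higher in Dp1Yey, so that 2 of 31 were called higher, against 0.687% of all genes, and 0 were called lower, against 0.11%. At an unadjusted p under 0.05, 17 of the 31 were higher (8.75% of all genes) and 1, Oas2, was lower (10.8% of all genes). The median difference of the 31 was 0.14 on the log2 scale, against -0.015 over all genes, and the members ranged from -0.16 for Oas2 to 0.61 for Ifit3. A rank statistic rewritten from the one used in the study placed 11 of the 31 in its upper tail (2.46% of all genes) and 0 in its lower tail (0.993%). In 5 of the 31, Irf9, Ifit2, Rsad2, Trim30a and Samd9l, every Dp1Yey mouse lay above every control mouse (2.4% of all genes). Of the 31, 29 were above background, Trim30a among them and Samd9l not. The number called was 8 with each array centred on its median and 1 without control replicates 1 and 2. Centring moved the median difference of all genes from -0.015 to 0.032 and called 294 genes higher, against 137 in the main fit.

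**Figure D1:**
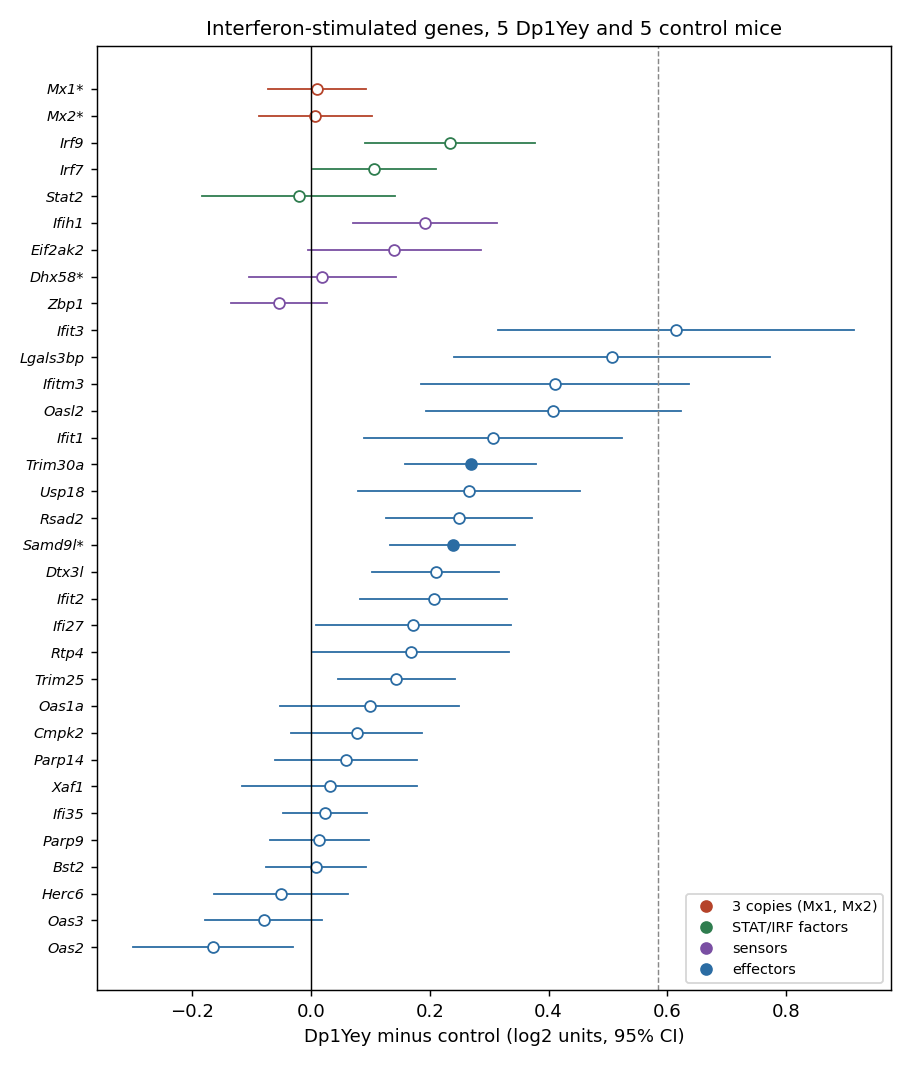
Log2 difference (Dp1Yey minus control, 5 mice each) of the 33 measured interferon-stimulated genes, with 95% confidence intervals from limma as bars and colours for their roles. Filled points are the 2 DEGs, Trim30a and Samd9l, asterisks mark the 4 genes not above background, the dashed line marks log2 of 1.5, and most effectors lie to the right of 0.

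Mx1 and Mx2 encode dynamin-like GTPases that block viruses in the nucleus or cytoplasm, and laboratory C57BL/6 mice are known to carry defective alleles of both. Mx1 (Mmu16, 97447035 to 97462906, GRCm38) and Mx2 (97536081 to 97560901) are the members present in 3 copies. Mx1 stood at 4.79, 4.70, 4.76, 4.68 and 4.65 in Dp1Yey replicates 1 to 5 and at 4.66, 4.68, 4.79, 4.68 and 4.72 in control replicates 1 to 5. Mx2 stood at 4.49, 4.44, 4.50, 4.32 and 4.50 in Dp1Yey and at 4.43, 4.51, 4.41, 4.37 and 4.49 in control mice. The groups overlapped for both, and neither gene was above background. The difference was 0.010 for Mx1 (95% CI -0.072 to 0.092, adjusted p = 0.900, limma) and 0.0073 for Mx2 (-0.088 to 0.10, adjusted p = 0.940). A signal at background gives no measure of a dose effect, and whether the probe sets lie in parts that the defective alleles lack was not examined here. Parp14, Parp9, Dtx3l and Rtp4 lie on Mmu16 too but outside the interval.

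Of the signalling factors, Irf9, the DNA-binding subunit of that complex, had the largest difference. It stood at 6.99, 6.92, 6.95, 7.02 and 7.28 in Dp1Yey replicates 1 to 5 and at 6.88, 6.73, 6.84, 6.68 and 6.85 in control replicates 1 to 5. All Dp1Yey mice lay above all control mice, by a narrow margin between Dp1Yey replicate 2 and control replicate 1. The difference of 0.23 (95% CI 0.091 to 0.38) missed the threshold (adjusted p = 0.109, limma). Irf7, which amplifies interferon production, stood at 5.99, 5.99, 6.18, 6.16 and 6.04 in Dp1Yey and at 6.00, 6.02, 5.87, 5.99 and 5.95 in control mice. The groups overlapped, with Dp1Yey replicates 3 and 4 highest, and the difference was 0.11 (0.0030 to 0.21, adjusted p = 0.244). Stat2, another subunit of the complex, stood at 7.71, 7.66, 7.69, 7.61 and 7.64 in Dp1Yey and at 7.59, 7.97, 7.77, 7.48 and 7.60 in control mice. Its control values were spread widely around the Dp1Yey values, with an SD of 0.19 against 0.039 (n = 5 each), and the difference of -0.021 (-0.18 to 0.14, adjusted p = 0.895) turned to 0.050 without control replicate 2. In all, limma called 0 of the 3 factors, where 0.687% of all genes were called higher and 0.11% lower. At p under 0.05 before adjustment 2 were higher (8.75% of all genes). In the tails of the rank statistic lay 0 (2.46% of all genes in the upper and 0.993% in the lower).

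Among the 4 nucleic acid sensors none was called by limma (0.687% of all genes higher and 0.11% lower) or the rank statistic (2.46% and 0.993%). At p under 0.05 before adjustment 1 was higher (8.75% of all genes), Ifih1, which encodes the double-stranded RNA sensor MDA5. Ifih1 stood at 6.55, 6.61, 6.70, 6.55 and 6.71 in Dp1Yey replicates 1 to 5 and at 6.42, 6.30, 6.48, 6.37 and 6.60 in control replicates 1 to 5. Control replicate 5 reached into the Dp1Yey range and the other 4 lay below it. The difference was 0.19 (95% CI 0.070 to 0.31, adjusted p = 0.118, limma). Eif2ak2, the kinase PKR that stops translation on double-stranded RNA, stood at 5.75, 5.66, 5.86, 5.87 and 6.02 in Dp1Yey and at 5.60, 5.80, 5.72, 5.56 and 5.76 in control mice. Its 3 highest values were Dp1Yey replicates 5, 4 and 3, and the groups overlapped below them, with a difference of 0.14 (-0.0058 to 0.29, adjusted p = 0.272). Zbp1, a sensor of Z-form nucleic acids that can trigger necroptosis, stood at 6.06, 5.95, 6.08, 6.03 and 6.07 in Dp1Yey and at 6.04, 6.13, 6.13, 6.13 and 6.03 in control mice. Here no Dp1Yey mouse lay above the control mean, and the difference was -0.054 (-0.13 to 0.027, adjusted p = 0.424). Dhx58, the regulator LGP2 of this sensor family, was not above background at 5.05, 5.26, 5.07, 4.95 and 5.19 in Dp1Yey and 5.12, 5.13, 5.06, 5.13 and 4.98 in control mice. The groups overlapped, with a difference of 0.019 (-0.11 to 0.14, adjusted p = 0.874).

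The effectors held both DEGs. Of 26 listed, 24 were measured, of which 21 lay above the control mean (42.1% of all genes) and 2 were called higher (0.687% of all genes). At p under 0.05 before adjustment 14 were higher (8.75% of all genes) and 1 lower (10.8%), and the median difference of the 24 was 0.17. A further 6 lay between adjusted p values of 0.05 and 0.1: Ifit3, Rsad2, Dtx3l, Lgals3bp, Oasl2 and Ifitm3. Over all genes 387 were higher at an adjusted p under 0.1, and 137 under 0.05. These 6 and both DEGs were the 8 called with median centring, which raised the difference of every gene by the same amount. Each of the 6 passed in 1 of the 10 fits that left out an array (adjusted p up to 0.195, for Ifitm3). None of them passed with a term for each array's interquartile range (0.177 to 0.538). Their differences under it ran from 0.20 for Rsad2, lower than in the main fit, to 0.75 for Ifit3, higher than in the main fit. That range was mostly higher in Dp1Yey arrays, and how far calls were lost through this overlap with group was not tested.

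Trim30a encodes a tripartite motif protein of myeloid and other cells that dampens inflammatory signalling downstream of Toll-like receptors. It lies on chromosome 7 (104409025 to 104465193) and stood at 6.40, 6.52, 6.51, 6.47 and 6.65 in Dp1Yey replicates 1 to 5 and at 6.18, 6.29, 6.23, 6.15 and 6.35 in control replicates 1 to 5. All Dp1Yey mice lay above all control mice. The rise of Trim30a was 1.21-fold (95% CI 1.12 to 1.30, a log2 difference of 0.27 with SE 0.051, adjusted p = 0.0335, limma). The call was kept without Dp1Yey replicate 1, control replicate 2 or control replicate 5 and lost without each of the 7 other arrays, with adjusted p between 0.0254 and 0.0966 over the 10 fits. It was also lost without control replicates 1 and 2 together (0.0856) and with a term for each array's interquartile range (0.156, log2 difference 0.30).

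Samd9l encodes a cytoplasmic factor that restricts poxviruses and limits cell growth. Its values, below the background level, were 4.93, 4.94, 5.08, 4.95 and 5.17 in Dp1Yey replicates 1 to 5 and 4.80, 4.83, 4.77, 4.74 and 4.74 in control replicates 1 to 5. The control mice were close together (SD 0.038, n = 5) and every Dp1Yey mouse lay above them. The difference of 0.24 (95% CI 0.13 to 0.34, adjusted p = 0.0455, limma) has no fold given here because both groups lay below the background level. The call was lost when any of the 10 arrays was left out (adjusted p 0.0576 to 0.126), with the replicate number as a block (0.123) and without control replicates 1 and 2 (0.073).

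**Figure D2:**
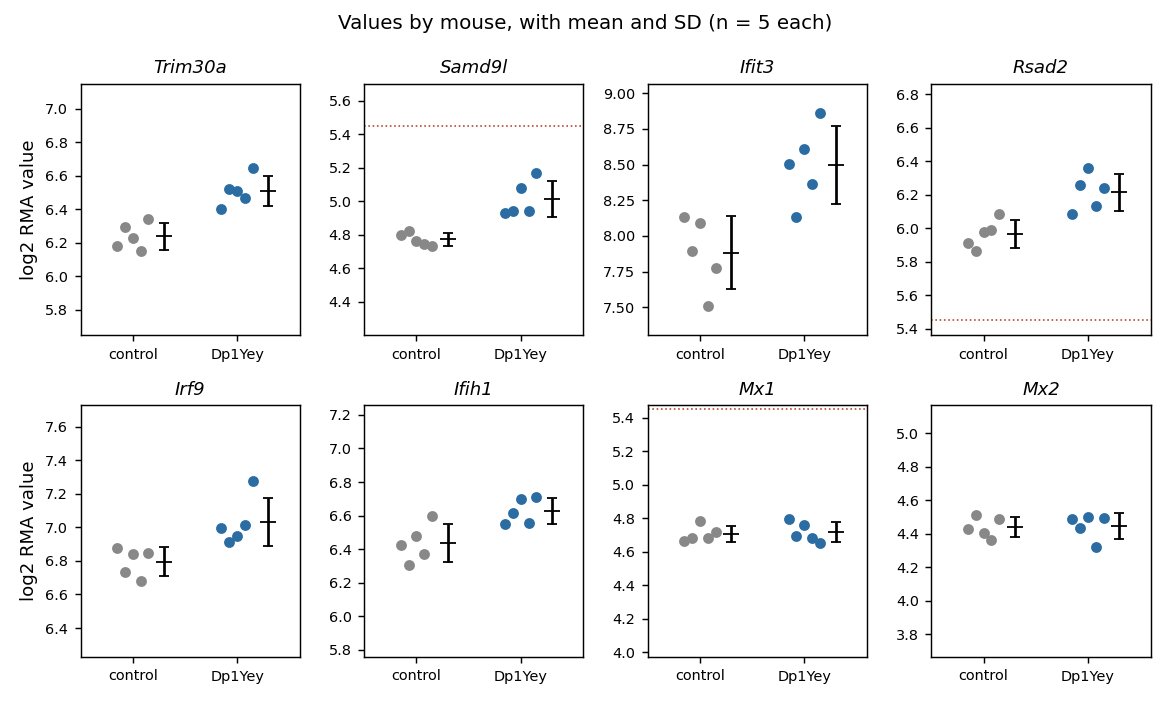
Log2 RMA values of 8 members in each of the 5 control (grey) and 5 Dp1Yey (blue) mice, with the group mean and SD at the right of each set. The dotted line is the background level of 5.45 where it falls within the panel, and the groups do not overlap for Trim30a, Samd9l, Rsad2 and Irf9 and overlap in the other 4.

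The Ifit genes encode tetratricopeptide proteins that bind viral RNA and block its translation, and lie together on chromosome 19. Ifit3 (34583119 to 34588982) had the largest difference of all members. It stood at 8.51, 8.13, 8.61, 8.36 and 8.86 in Dp1Yey replicates 1 to 5 and at 8.14, 7.90, 8.09, 7.51 and 7.77 in control replicates 1 to 5. Dp1Yey replicate 2 fell just within the control range and the other 4 lay above it. The fold was 1.53 (95% CI 1.24 to 1.89, adjusted p = 0.0623, limma), and it passed when Dp1Yey replicate 2 was left out (0.0464), under median centring (0.0311) and array weights and among genes above background alone (0.0488). Ifit2 (34550550 to 34576534) stood at 6.57, 6.63, 6.70, 6.60 and 6.79 in Dp1Yey and at 6.54, 6.30, 6.50, 6.37 and 6.53 in control mice. Here the groups did not overlap, with a fold of 1.15 (1.06 to 1.26, adjusted p = 0.103). Ifit1 (34640889 to 34650009) ranged from 6.42 to 6.99 in Dp1Yey and from 6.26 to 6.59 in control mice, a difference of 0.31 (adjusted p = 0.148). The difference of Ifit3 exceeded that of Ifit1 by 0.31 and that of Ifit2 by 0.41 log2 units. In an exact permutation test over the 252 assignments of mice to groups, two-sided and adjusted over the 7 pairs of members that come next to each other on a chromosome within 100 kb, neither passed (p = 0.0238 and 0.0317, adjusted p = 0.074 for both).

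Rsad2, or viperin, makes a nucleotide analogue that stops viral RNA synthesis, and Cmpk2, a mitochondrial nucleotide kinase, is its neighbour on chromosome 12. Rsad2 stood at 6.09, 6.26, 6.36, 6.13 and 6.24 in Dp1Yey replicates 1 to 5 and at 5.91, 5.86, 5.98, 5.99 and 6.09 in control replicates 1 to 5. Dp1Yey replicate 1 and control replicate 5 met at the edge, and no control mouse lay above a Dp1Yey mouse. The fold of 1.19 (95% CI 1.09 to 1.29) did not pass (adjusted p = 0.0631, limma), but did without control replicate 5 (0.0465) and under median centring (0.0408). Cmpk2 was 0.077 higher (adjusted p = 0.401), with overlapping groups, and the difference between the neighbours, 0.17, did not pass either (exact permutation p = 0.135, adjusted p = 0.189).

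Dtx3l, a ubiquitin ligase, works in a complex with Parp9, and the genes of both and of the ADP-ribosyltransferase Parp14 stand in a row on Mmu16, outside the duplicated interval. Dtx3l stood at 6.85, 7.01, 6.91, 6.97 and 7.03 in Dp1Yey replicates 1 to 5 and at 6.89, 6.67, 6.74, 6.70 and 6.73 in control replicates 1 to 5. Control replicate 1 lay above Dp1Yey replicate 1, and no other pair crossed. The fold was 1.16 (95% CI 1.07 to 1.25, adjusted p = 0.0714, limma), and it passed the threshold without control replicate 1 (0.0307) and under median centring (0.0353). Parp9 and Parp14 differed by 0.014 and 0.059 (adjusted p = 0.861 and 0.557). The difference of Dtx3l exceeded that of Parp9 by 0.20 log2 units (exact permutation p = 0.0159, adjusted p = 0.074 over the 7 pairs), which did not pass. The annotated genes Dtx3l and Parp9 overlap at their starts.

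Lgals3bp, a secreted glycoprotein that binds galectins, stood at 8.37, 8.27, 8.43, 8.16 and 8.82 in Dp1Yey replicates 1 to 5 and at 8.27, 7.81, 7.86, 7.71 and 7.89 in control replicates 1 to 5. Control replicate 1 alone reached into the Dp1Yey range. Its fold was 1.42 (95% CI 1.18 to 1.71, adjusted p = 0.0780, limma), and it passed the threshold without control replicate 1 (0.0329), under median centring (0.0374) and with array weights. Ifitm3, which traps viruses in endosomes as they enter, stood at 9.03, 8.50, 8.77, 9.13 and 8.90 in Dp1Yey and at 8.64, 8.41, 8.49, 8.45 and 8.28 in control mice. Dp1Yey replicate 2 lay within the control range and the other 4 above it. The fold was 1.33 (1.14 to 1.55, adjusted p = 0.0881). It passed the threshold without Dp1Yey replicate 2 (0.0222) and under median centring (0.0453), but not without any other single array (up to 0.195). Ifitm1 and Ifitm2, of the same family but outside the member list, were at -0.030 and 0.076 (adjusted p = 0.870 and 0.699, limma). Bst2, or tetherin, which holds budding virus at the cell surface, differed by 0.0084 (-0.076 to 0.093, adjusted p = 0.919).

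The oligoadenylate synthetases make the signal that activates RNase L, and the genes of this family lay on both sides of 0. Oasl2, which is related to them, stood at 7.71, 7.45, 7.86, 7.74 and 7.92 in Dp1Yey replicates 1 to 5 and at 7.58, 7.29, 7.40, 7.05 and 7.32 in control replicates 1 to 5. Dp1Yey replicate 2 lay under control replicate 1, and the other 4 lay above all control mice. The fold was 1.33 (95% CI 1.14 to 1.54, adjusted p = 0.0782, limma), and it passed the threshold without control replicate 1 (0.0473) and under median centring (0.0389). Oas2 stood at 5.67, 5.44, 5.46, 5.44 and 5.60 in Dp1Yey and at 5.61, 5.88, 5.66, 5.68 and 5.61 in control mice. Every Dp1Yey mouse lay under the control mean, though replicate 1 lay above 3 control mice, and the fold was 0.892 (0.813 to 0.979, adjusted p = 0.189, limma). Its neighbour Oas3 was at -0.080 (-0.18 to 0.019, adjusted p = 0.342, limma), and turned to a difference above 0 in at least 1 alternative. Both genes lay near the background level of 5.45. Oas2 was under it in Dp1Yey replicates 2 and 4, and Oas3 had means of 5.42 in Dp1Yey and 5.50 in control mice. Oas1a was at 0.099 (-0.052 to 0.25, adjusted p = 0.429, limma). The pair Oas2 and Oas3 did not differ beyond its spread (exact permutation p = 0.167, adjusted p = 0.195). Oasl1 and Oas1b, family genes outside the member list, were at -0.12 and -0.092 (adjusted p = 0.272 and 0.325, limma). Oas1b was not above background.

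Trim25, a ubiquitin ligase that helps the sensor RIG-I to signal, stood at 6.63, 6.54, 6.52, 6.56 and 6.64 in Dp1Yey replicates 1 to 5 and at 6.49, 6.37, 6.56, 6.34 and 6.42 in control replicates 1 to 5. Control replicate 3 fell inside the Dp1Yey range, and the difference was 0.14 (95% CI 0.045 to 0.24, adjusted p = 0.136, limma). Usp18, which removes ISG15 from proteins and dampens receptor signalling, ranged from 6.26 to 6.64 in Dp1Yey and from 6.00 to 6.37 in control mice, a difference of 0.27 (adjusted p = 0.145). Herc6, the mouse ligase that attaches ISG15, was at -0.050 (adjusted p = 0.599). Of the remaining effectors, Ifi27 was at 0.17 (adjusted p = 0.235), with control replicate 1 the highest of all 10 mice. Ifi27 passed the threshold without that array (0.0149) but not without any other single array (up to 0.423). Rtp4, a chaperone of membrane receptors, was at 0.17 (adjusted p = 0.249). Xaf1, which promotes apoptosis, and Ifi35 were at 0.031 and 0.023 (adjusted p = 0.815 and 0.699). Ifit3, Oas1a and Trim30a have close relatives in the mouse genome, and how far their probe sets separate them from those was not examined here.

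The members were also read mouse by mouse. Taking for each mouse the median deviation of the 31 members in 2 copies from the control mean, Dp1Yey replicates 1 to 5 lay at 0.11, 0.045, 0.16, 0.12 and 0.25 log2 units and control replicates 1 to 5 at 0.039, 0.016, 0.011, -0.060 and -0.015. The groups did not overlap, but Dp1Yey replicate 2 came close to control replicate 1. The number of members above the control mean was 24, 19, 27, 22 and 26 in Dp1Yey and 21, 17, 16, 7 and 12 in control mice, so that on this count Dp1Yey replicate 2 fell below control replicate 1. Dp1Yey replicate 5 was the highest of all 10 mice in 14 of the 31 members, and control replicate 4 was the lowest of all in 12. These are descriptions of a list and carry no test.

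**Figure D3:**
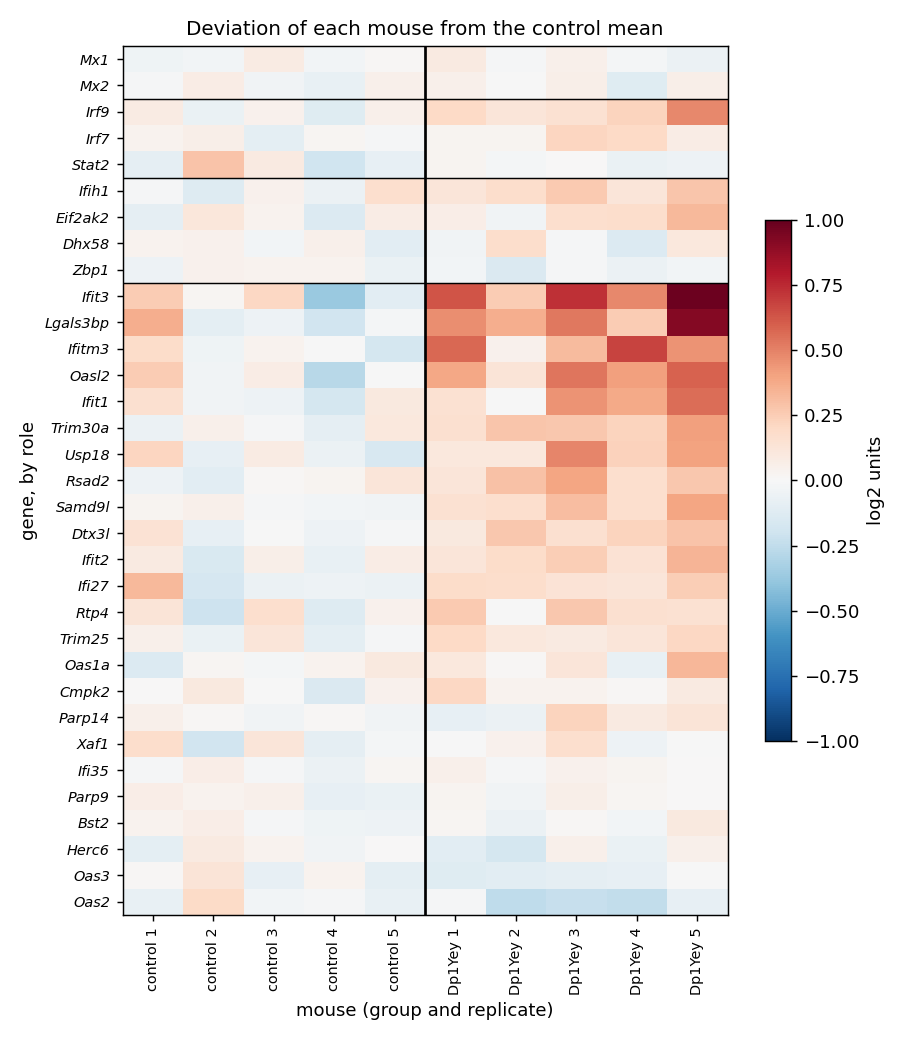
Deviation of each of the 10 mice from the control mean, in log2 units, for the 33 measured members grouped by role (from the top Mx1 and Mx2, factors, sensors and effectors). The upper effectors, Ifit3 to Rtp4, are mostly red in the 5 Dp1Yey columns, most deeply in Dp1Yey replicate 5, while control replicate 4 is mostly blue and control replicate 1 partly red.

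Markers of cell types were read as lists, and their part in the results was not tested. Over all genes 42.1% lay above the control mean, and at p under 0.05 before adjustment 8.75% were higher and 10.8% lower. Limma called 0.687% of all genes higher and 0.11% lower. The rank statistic placed 2.46% of all genes in its upper tail and 0.993% in its lower tail. Of 13 microglial markers measured, 12 lay above the control mean, 6 were higher at p under 0.05 before adjustment, 0 were called by limma and 3 by the rank statistic. The mean of the 13 was 8.49 to 8.58 in Dp1Yey and 8.31 to 8.50 in control mice. Of 7 endothelial markers 6 lay above the control mean and 2 were higher at p under 0.05 before adjustment. Their means overlapped, at 8.12 to 8.38 in Dp1Yey and 7.99 to 8.39 in control mice. All 7 choroid plexus markers lay below the control mean, 6 of them at p under 0.05 before adjustment, with a median difference of -0.57, and their mean was 6.93 to 7.56 in Dp1Yey and 7.14 to 8.63 in control mice, high in control replicates 1, 4 and 5. Of the endothelial and choroid plexus markers limma called 0, while the rank statistic placed 2 endothelial markers in its upper tail and 5 choroid plexus markers in its lower tail. Of 9 blood and leukocyte markers measured, 5 were above background, 3 lay above the control mean and 6 below it. At p under 0.05 before adjustment 1 of them was higher and 1 lower, and their mean was 5.63 to 5.76 in Dp1Yey and 5.64 to 5.85 in control mice. Above the control mean lay 6 of 10 neuronal, 5 of 8 astrocyte, 5 of 6 oligodendrocyte and 3 of 7 meningeal and fibroblast markers. At p under 0.05 before adjustment 2 neuronal and 2 astrocyte markers were higher and 1 meningeal marker was lower. Limma called 0 of these.

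**Figure D4:**
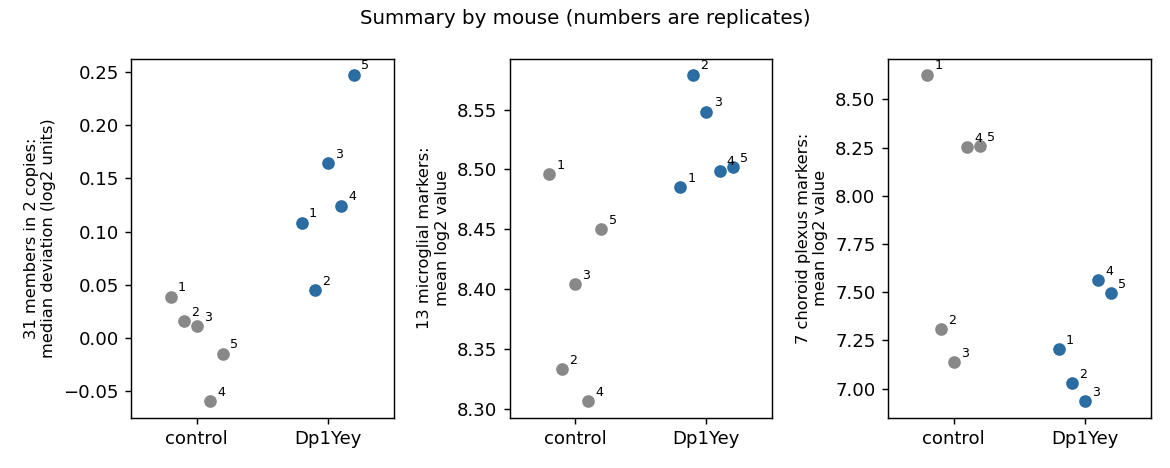
For each mouse (numbers are replicates; grey control, blue Dp1Yey), the median deviation of 31 interferon-stimulated genes from the control mean, the mean log2 value of 13 microglial markers and that of 7 choroid plexus markers. The Dp1Yey mice lie higher in the left panel (0.045 to 0.25 against -0.060 to 0.039), nearly so in the middle panel and mostly lower in the right panel.

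The rest of the pathway was described from lists of its ligands, receptor and kinases, inducers and further target genes. Both receptor genes, present in 3 copies, were called. Ifnar1 stood at 9.45, 9.28, 9.39, 9.32 and 9.44 in Dp1Yey replicates 1 to 5 and at 8.86, 8.77, 8.81, 8.71 and 8.83 in control replicates 1 to 5, a rise of 1.50-fold (95% CI 1.40 to 1.60, adjusted p = 5.21e-05, limma). For Ifnar2 the values were 10.04, 9.79, 9.91, 9.85 and 10.02 in Dp1Yey and 9.24, 8.66, 9.09, 9.12 and 9.12 in control mice, a rise of 1.83-fold (1.59 to 2.11, adjusted p = 0.000569). No values of the groups overlapped in either gene, and both stayed called in all 20 alternatives run for them. The receptor-bound kinases Jak1 and Tyk2 were at -0.036 and -0.061 (adjusted p = 0.566 and 0.383), and with median centring Jak1 turned to 0.010. Socs3, a feedback inhibitor of JAK signalling, ranged from 6.65 to 6.84 in Dp1Yey and from 6.82 to 7.10 in control mice, a difference of -0.26 (95% CI -0.38 to -0.14, adjusted p = 0.0564). It passed the threshold among genes above background alone (0.0488) and without control replicate 3 (0.0166), but not without any other single array (up to 0.142). With the mean of all its probe sets the difference of Socs3 was -0.21 (adjusted p = 0.062, limma). Of 10 genes of this list measured, Usp18 among them, 2 were called higher (0.687% of all genes), both of them the receptor genes in 3 copies, and 0 lower (0.11%). At p under 0.05 before adjustment, as by the rank statistic, 3 were higher and 1 lower. Over all genes 8.75% were higher and 10.8% lower at that p, and 2.46% and 0.993% by the rank statistic.

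Of 18 ligand genes, 14 were measured and 7 were above background. None lay above the control mean, where 42.1% of all genes and 253 of 1015 olfactory receptor genes did, and none was called by limma. At p under 0.05 before adjustment 6 were lower (10.8% of all genes) and 0 higher (8.75%). Of the olfactory receptor genes 126 were lower and 4 higher at that p. By the rank statistic 1 ligand was lower (0.993% of all genes), and the median difference was -0.078, beside -0.030 for the olfactory receptor genes. The 4 of smallest p were Ifna16 (-0.19, adjusted p = 0.129), Ifnz (-0.16, 0.134), Ifnab (-0.23, 0.148) and Ifna14 (-0.21, 0.149). Ifna16 was not above background, with means of 5.29 in Dp1Yey and 5.48 in control mice. Ifnab counted as above background by its mean over both groups, but stood at 5.38 in Dp1Yey, below 5.45, and at 5.61 in control mice. Interferon alpha genes are near-identical copies of each other, so which of them a probe set measured is uncertain.

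Among genes that sense microbes or nucleic acids and induce interferons, 15 of 16 were measured. Of these 1 was called higher (0.687% of all genes) and 0 lower (0.11%), and the median difference was -0.022. At p under 0.05 before adjustment 3 were higher (8.75% of all genes) and 1 lower (10.8%), and by the rank statistic 2 were higher (2.46%) and 0 lower (0.993%). The called gene was Tlr3, the endosomal receptor for double-stranded RNA, at 8.45, 8.44, 8.37, 8.34 and 8.34 in Dp1Yey replicates 1 to 5 and 8.15, 8.05, 8.12, 8.17 and 8.27 in control replicates 1 to 5. Its groups did not overlap, with a rise of 1.18-fold (95% CI 1.10 to 1.26, adjusted p = 0.0302, limma). The call of Tlr3 was lost without Dp1Yey replicates 1, 2 or 3 or control replicates 1 or 4 (up to 0.0905), without control replicates 1 and 2 (0.0909), with the replicate number as a block (0.114) and with a term for each array's interquartile range (0.364, log2 difference 0.16). The adaptor Myd88 was at 0.20 (adjusted p = 0.0888) and passed without Dp1Yey replicate 5 (0.0253) but not without any other single array (up to 0.198). Rigi, the RNA sensor listed as Ddx58 on the array, was at 0.21 (adjusted p = 0.134), and the kinase gene Ikbke was at -0.13 (0.185).

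Of 29 other interferon-stimulated genes, 26 were measured, of which 17 lay above the control mean (42.1% of all genes) and 9 below it. Limma called 0 of these 26 genes (0.687% of all genes higher and 0.11% lower). At p under 0.05 before adjustment 7 were higher (8.75% of all genes) and 0 lower (10.8%). The upper tail of the rank statistic held 3 (2.46% of all genes), and the median difference was 0.038. Isg20, an exonuclease that degrades viral RNA, ranged from 7.57 to 7.95 in Dp1Yey and from 7.19 to 7.64 in control mice, a difference of 0.35 (95% CI 0.17 to 0.53, adjusted p = 0.0678, limma). Ube2l6, the conjugating enzyme of ISG15, was at 0.31 (adjusted p = 0.0936), the DNA sensor family gene Ifi203 at 0.32 (0.107) and Nmi, a partner of Ifi35, at 0.15 (0.131). Isg20 (0.0400) and Ube2l6 (0.0417) passed without control replicate 5, and Ifi203 passed without control replicate 3 (0.0488). Isg20, Ube2l6 and Ifi203 did not pass without any other single array (up to 0.149, 0.170 and 0.212).

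**Figure D5:**
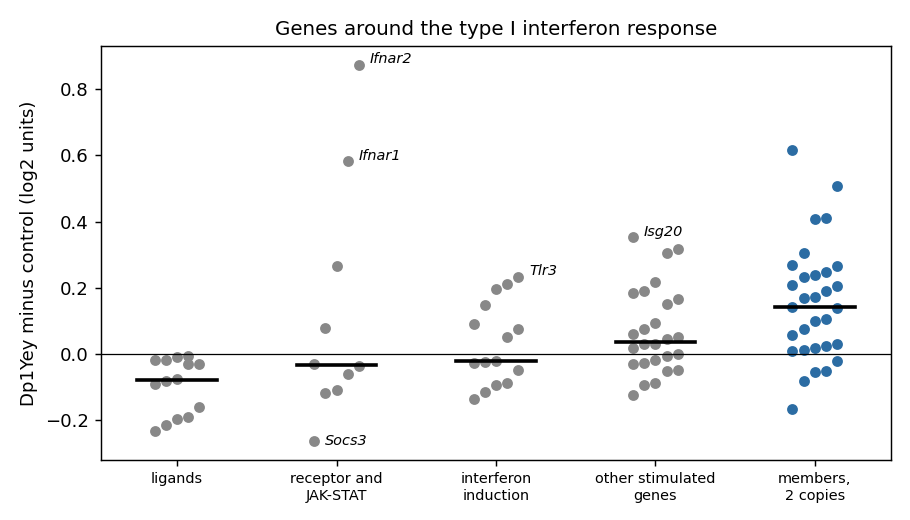
Log2 difference (Dp1Yey minus control, 5 mice each) of every measured gene of 4 pathway lists (grey) and of the 31 members in 2 copies (blue), with the median of each list as a black bar. The ligands lie below 0 (median -0.078), the receptor genes Ifnar1 and Ifnar2 stand far above the rest of their list, and the members have a median of 0.14.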

How the data were processed

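The samples were grouped by the titles in the labels. The authors deposited log2 values made by RMA, which corrects background, normalises probes by quantiles and summarises them per probe set. RMA, limma and mm10 are named in the submitters' processing notes. Scanner files were not used here. Of 35556 probe sets, 21789 were annotated to 1 gene symbol, 1621 to more than 1, while another 12146 are unnamed here. Each of 19938 genes took its brightest single-symbol probe set. The probe set annotation can be old. Coordinates and promoter windows came from RefSeq GRCm38.p6 (mm10) through Entrez identifiers, for 19852 genes. Arrays have no read depth, and the number of mice limits the precision.

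Groups were compared with lmFit and eBayes of limma 3.58.1 (R 4.3.3), two-sided, with group as the single factor. The study's own rank test gives each gene a probability from ranked fold changes. A rewritten form over all 25 pairs of arrays (trim 0.25, tails 0.025 and 0.975) was an alternative here. The others were quantile normalisation, median centring, a filter on genes above background, the mean of all probe sets, single probe sets, a trended and robust prior, the replicate number as a block, array weights, the interquartile range as a covariate, and leaving out control replicates 1 and 2 together or each array in turn. Members, lists, roles and alternatives were chosen with earlier results of these data known. Named with all values were Mx1, Mx2, the factors, the sensors, the 10 effectors of smallest p and effectors lower at an unadjusted p under 0.05. Of the pathway lists, Ifnar1, Ifnar2, Jak1, Tyk2, called genes and up to 4 of smallest p were named, with all values for called genes. Some items are not reported here. The fit was tested on simulated data. Whether mice of a group shared a litter is not given, and the p-values treat the mice as independent. Those of limma set a difference against a spread between mice that is moderated over all genes.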

Additional observations from a re-analysis of the deposited data

Results flagged for a closer look

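In groups of 5 mice, the value of 1 mouse stood apart from the other 4 in 6 of 100 groups of 50 genes examined (a gap above 0.71 of the whole range), where chance gives about 1 in 20. Dp1Yey replicate 5 was high in Irf9 at 7.277, with the next mouse at 7.016, and control replicate 1 was high in Ifi27 at 9.087, with the next at 8.712. Control replicate 2 was high in Oas2 at 5.876, with the next at 5.679, and low in Ifnar2 at 8.663, with the next at 9.092. Dp1Yey replicate 1 was high in Ifna16 at 5.389, with the next at 5.275, and control replicate 3 was high in Ifi203 at 6.477, with the next at 6.176.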

How the results depend on the processing

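Members in 2 copies called higher numbered 2, and 8 with median centring, 4 with array weights, 11 by the rank statistic, 1 where each array's interquartile range was a covariate, 1 without control replicates 1 and 2 together, and 0 to 4 when each array was left out (4 without control replicate 1, and 0 without Dp1Yey replicates 3, 4 or 5 or control replicates 3 or 4). Calls of lower members and of Mx1 or Mx2 stayed at 0 in every alternative that could be run, and the filter on background left neither Mx gene to test. The median difference of the members lay between 0.12 and 0.19 throughout. With the replicate number as a block 1 member was called, Trim30a, and 90 genes higher and 4 lower over all genes, against 137 and 22. Over genes above background, the deviations of mice of the same number had correlations of 0.062, 0.009, 0.04, 0.218 and -0.327 for replicates 1 to 5. The best-matching control mouse had the same number for replicate 4 alone. These values showed no general pairing by number, but so few cannot exclude a shared litter or batch. Over all genes, median centring gave 294 higher and 14 lower, and the interquartile range covariate, which is partly confounded with group, 44 and 2. The cause was not tested.

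Some signs turned, all of genes that were not called. Mx1 was at -0.040 with the covariate, -0.013 without control replicates 1 and 2, and as low as -0.0093 without single arrays (highest 0.030), Mx2 ranged from -0.011 to 0.040 and Dhx58 from -0.020 to 0.058 on leaving out single arrays. Stat2 was at 0.026 with median centring and 0.026 with array weights, 0.050 with the covariate, 0.043 without control replicates 1 and 2 and from -0.071 to 0.050 without single arrays. Jak1 was at 0.010 with median centring and Zbp1 at 0.0008 with quantile normalisation. Oas3, Bst2, Parp9, Xaf1 and Herc6 also changed sign in at least 1 alternative.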
